A study of Homo sapiens with 2 samples.

Results

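Cyclins, cyclin-dependent kinases (CDKs) and CDC genes of the cell cycle are described here by the splicing events that rMATS listed for them in HEK293T cells. Members were chosen by gene symbol: CDK with a number, CCN with a letter and in most cases a number, both cyclin L genes among them, and the CDC genes CDC6, CDC7, CDC16, CDC20, CDC23, CDC26, CDC27, CDC25A, CDC25B and CDC25C. Of 12254 genes with an event in at least 1 of the 5 tables, 54 were members, with 27 cyclin genes, 17 CDK genes and 10 CDC genes. The annotation holds 57 protein-coding genes with such a symbol, and CDK3, CDK15, CCNP and CCNQ were the 4 of them with no event. CCNYL2, which the annotation gives as noncoding, was also listed.

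Polyadenylated RNA was sequenced from HEK293T, an established line grown from embryonic kidney tissue of human origin. The treated group received amiloride, a diuretic and blocker of sodium channels, at 300 µg/mL over 6 h, and the control group was left untreated. Each condition has 1 library, so no replicate check exists, and the depth per library is not given here. Column names in the tables do not tell which library is which condition, and therefore the events are described by position, sequence and reading frame, with no comparison of the conditions. The identity of the line was not checked against markers, since the read columns were not used.

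Cyclins are regulatory proteins that bind a CDK and switch on its kinase activity, and the cyclins of the cell cycle are made and destroyed in turn as cells pass from growth through DNA replication to division. In the kinase, the helix named PSTAIRE contacts the cyclin, the HRD motif lies in the catalytic loop, and the DFG motif binds the metal ion that holds ATP. Another branch of the family, with cyclins C, H, K, L and T, acts with CDKs on RNA polymerase II and on RNA processing, and cyclin H with CDK7 also activates the CDKs of the cell cycle.

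A skipped-exon event consists of an exon and the pair of flanking exons that are joined when it is left out, so 1 exon can appear in several events. Listing means that rMATS formed the event from the reads or the annotation, not that splicing changed. The skipped-exon table held 662 events of 313 distinct exons in 51 member genes, or 0.466% of all 67154 distinct exons. CCNA1, CCNI2 and CCNO were listed in other tables only. Mutually exclusive exons were listed as 201 distinct pairs in 41 member genes, 0.667% of the pairs of all genes. Alternative splice sites were fewer, with 10 distinct choices between 5' splice sites in 6 genes (0.498% of all) and 17 between 3' splice sites in 12 genes (0.699%). Retained introns were listed in CCNG1, CCNT2, CCNYL1, CDC16 and CDK17, 1 in each, or 0.739% of all 677.

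Exon numbers follow the canonical transcript in GENCODE release 44 on GRCh37, and coordinates count from 1. Inner exons, those other than the first and the last, can be skipped, and 305 of the 465 inner exons of 53 member genes were listed. This is 65.6% (95% Wilson interval 61.2 to 69.8, which like all intervals here covers counting error only), beside 48.5% (48.2 to 48.8) of the 120933 inner exons of all 10832 listed genes with such exons. Every inner exon was listed in CCND1, CCNI, CCNYL1, CDK4 and CDK20. At the other end stood 10 genes with under 50% of their inner exons listed, among them CCNB2, CCNB3, CCNG2, CCNH, CCNK, CCNL1 and CDC25B. Repeated listing was also common, since 171 of the 313 member exons (54.6%, 49.1 to 60.1) appeared in more than 1 event, against 40.0% (39.7 to 40.4) of the exons of all genes.

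**Figure D1:**
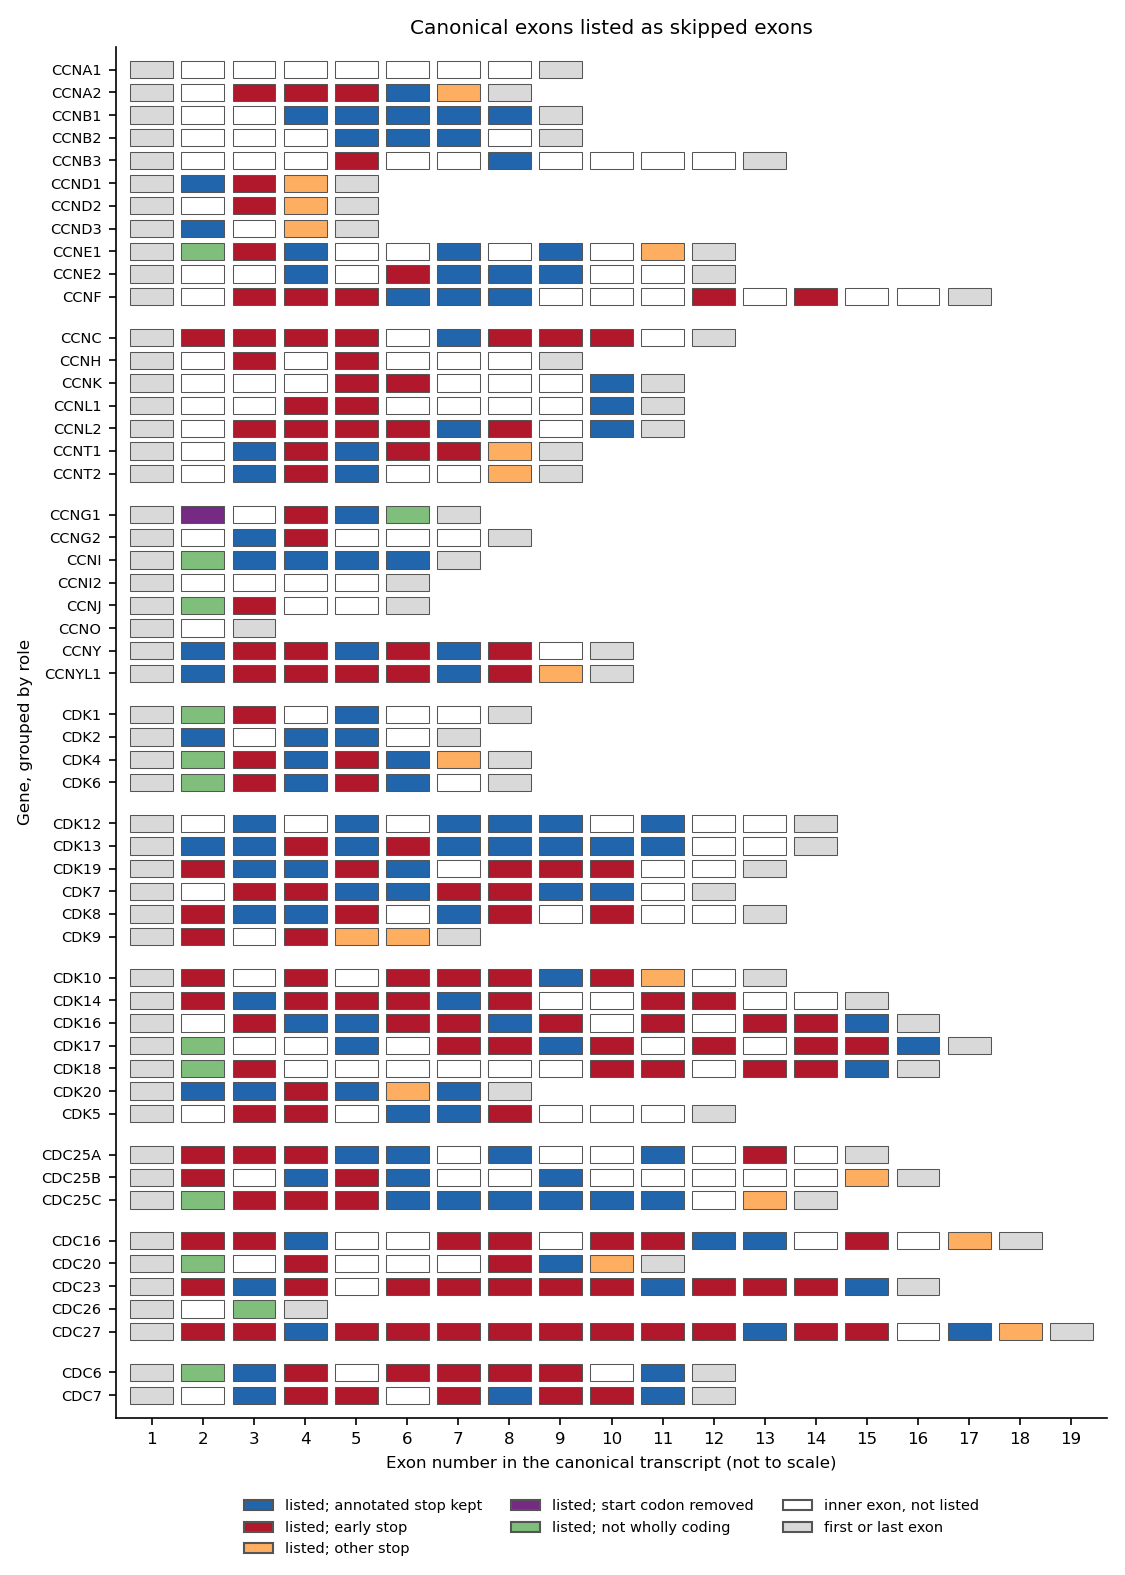
Exons of the canonical transcript of 53 member genes, 1 line per gene in groups by role, by exon number (not to scale). Colours give what removal of a listed exon alone does to the reading frame, white boxes are inner exons that were not listed and grey boxes are first and last exons. CDK2, CDK12, CCNB1 and CCNB2 hold listed exons of 1 colour only, those that keep the annotated stop codon. In CCNB1 and CCNB2 the inner exons that were not listed also have a length divisible by 3.

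Among the CDKs that drive the cell cycle, CDK1 and CDK2, the partners of cyclins A, B and E, each had 3 listed exons in 3 events. CDK1 exon 5 (chr10:62547818-62547988, plus strand, 171 bases, coding) encodes residues 107 to 163, which hold both the HRD and the DFG motif. Its counterpart of the same length, CDK2 exon 4 (chr12:56362562-56362732, plus strand, coding), encodes residues 106 to 162 with both motifs. Removal of either exon keeps the frame and takes 57 residues. Here and below, removal means that a single exon is taken out of the canonical transcript, whether or not a listed junction does this. The listed junction of CDK2 exon 4 does not join its canonical neighbours. Their 5' splice sites, shown because CDK1 has the only member exon without AG before and GT after it, start the intron with GC in CDK1 and with GT in CDK2. The first 3 bases are exonic, and capitals mark the first intron bases (chr10:62547986-62547994 and chr12:56362730-56362738).
CDK1 exon 5, 5' splice site: gagGCaagt
CDK2 exon 4, 5' splice site: gagGTgagt

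The PSTAIRE helix lies in other exons of the same genes, and both were listed, in 1 event each. CDK1 exon 3 (chr10:62544463-62544619, plus strand, 157 bases) encodes residues 13 to 65, and its removal shifts the frame to a stop codon that leaves 34 residues. CDK2 exon 2 (chr12:56361641-56361718, plus strand, 78 bases) encodes residues 39 to 65, and its removal keeps the frame and takes 26 residues. The same helix is thus encoded by an exon that keeps the frame in CDK2 and by an exon that does not in CDK1. Both exons are printed with the codons of PSTAIRE in capitals.
CDK1 exon 3: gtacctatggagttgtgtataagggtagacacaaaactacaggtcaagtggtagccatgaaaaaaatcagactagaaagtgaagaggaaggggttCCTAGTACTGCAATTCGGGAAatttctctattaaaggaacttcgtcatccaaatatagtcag
CDK2 exon 2: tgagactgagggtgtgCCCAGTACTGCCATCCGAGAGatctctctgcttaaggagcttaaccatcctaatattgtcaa

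CDK4 and CDK6, the kinases that pair with the D cyclins and phosphorylate the retinoblastoma protein, differed in how often their exons were listed. All 6 inner exons of CDK4 appeared, in 41 events, and 5 exons of CDK6 in 7 events. CDK4 exon 4 (chr12:58144706-58144873, minus strand, 168 bases) encodes residues 119 to 174 and was listed in 10 events. CDK6 exon 4 (chr7:92354940-92355107, minus strand, 168 bases) encodes residues 124 to 179 and was listed in 1. Each holds the HRD and the DFG motif, and removal of either keeps the frame and takes 56 residues, out of 303 in CDK4 and 326 in CDK6. The exons are identical at 121 of 168 bases (72.0%) and are shown with the HRD and DFG codons in capitals.
CDK4 exon 4: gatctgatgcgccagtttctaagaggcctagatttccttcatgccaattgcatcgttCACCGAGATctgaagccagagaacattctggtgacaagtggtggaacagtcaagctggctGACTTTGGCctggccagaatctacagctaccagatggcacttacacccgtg
CDK6 exon 4: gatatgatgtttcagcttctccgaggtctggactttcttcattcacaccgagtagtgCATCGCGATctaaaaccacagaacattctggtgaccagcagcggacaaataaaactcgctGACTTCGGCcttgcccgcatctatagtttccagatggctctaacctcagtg

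Across the 17 listed CDK genes, PSTAIRE or a variant with 1 letter changed was found in the protein of 8. The match was exact in CDK1 and CDK2 and a variant in CDK12, CDK13, CDK14, CDK16, CDK17 and CDK18, and the exon was listed in all but CDK18. HRD was present in all 17 proteins, within 1 exon in 14 of them, and that exon was listed in 12, the exceptions being CDK12 and CDK18. In CDK7, CDK10 and CDK20 the codons of HRD are divided between neighbouring exons. DFG was found in 15 proteins and was missing from the Mediator kinases CDK8 and CDK19. It is encoded within 1 exon in 11 of them, and in all 11 genes that exon was listed as a skipped exon; in CDK14, CDK16, CDK17 and CDK18 a junction divides it. All listed CDK genes except CDK18 thus had at least 1 listed exon that encodes a whole motif of the kinase. Most inner exons of these genes were listed with or without a motif, 116 of 167 (69.5%, 62.1 to 75.9).

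The cell cycle cyclins contributed 41 listed exons from 10 genes, and 22 of the 41 (53.7%) have a length divisible by 3. All listed exons keep the frame in the mitotic cyclins CCNB1, with 5, and CCNB2, with 3. Every inner exon of these genes has a length divisible by 3, whether listed or not. For CCND1 and CCND3, which encode D cyclins of the G1 phase, exon 2 has 216 bases in both (chr11:69457799-69458014, plus strand, and chr6:41908108-41908323, minus strand), and removal takes 72 residues. Exon 2 of CCND3 was joined past by 2 listed junctions, both annotated. CCNF, a cyclin that serves as an F-box protein of a ubiquitin ligase, had the most listed exons of this group, 8 in 16 events. Its exon 6 (chr16:2488071-2488124, plus strand, 54 bases) stood in 4 events, and removal takes 18 residues. CCNE1, which encodes the partner of CDK2 at the start of DNA replication, had 6 listed exons. Exon 4 of CCNE1 (chr19:30303876-30303944, plus strand, 69 bases) is preceded by the weakest 3' splice site of all member exons by the score described further on, at -0.53.

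The CDKs of transcription had 43 listed exons in 6 genes, and 24 of them (55.8%) keep the frame. CDK13 and CDK12, which phosphorylate the tail of RNA polymerase II with cyclin K, had 10 and 6 listed exons, of which 8 and 6 keep the frame. CDK13 exon 2 (chr7:40027198-40027857, plus strand, 660 bases) is the longest listed member exon, and removal takes 220 of 1512 residues. The exon with the PSTAIRE variant has 171 bases in both genes (CDK12 exon 5, chr17:37650777-37650947, and CDK13 exon 5, chr7:40041460-40041630, both plus strand), and that with DFG has 57 (exon 7, chr17:37665958-37666014 and chr7:40087420-40087476). Removal of these exons takes 57 and 19 residues. HRD lies in exon 6, of 190 bases, which was listed in CDK13 (chr7:40085435-40085624) in 3 events and not listed in CDK12.

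CDK19 and CDK8, the kinases of the Mediator complex, were listed in 26 and 9 events. The HRD exon is exon 4 in both, with 141 bases and 47 residues, and it was in 6 events for CDK19 (chr6:110988637-110988777, minus strand) and 2 for CDK8 (chr13:26927877-26928017, plus strand). CDK7, which activates other CDKs and is part of the transcription factor TFIIH, had 8 listed exons in 25 events. Its exon 7 (chr5:68555645-68555763, plus strand, 119 bases) encodes DFG, and removal brings an early stop. CDK9, the kinase of the elongation factor P-TEFb, was unlike CDK12 in that none of its 4 listed exons keeps the frame. HRD and DFG lie together in CDK9 exon 5 (chr9:130550493-130550664, plus strand, 172 bases).

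The cyclins of transcription and splicing had 34 listed exons, of which 10 (29.4%) have a length divisible by 3, beside 53.7% for the cell cycle cyclins; this difference was not tested. CCNC, the Mediator cyclin, had 8 listed exons in 18 events, and removal of 7 of them brings an early stop. The exception is exon 7 (chr6:99998869-99998904, minus strand, 36 bases), whose removal takes 12 residues. Cyclins T1 and T2, which activate CDK9, had 6 and 5 listed exons. CCNH, the partner of CDK7, had 2 and CCNK 3.

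Cyclins L1 and L2, which associate with splicing factors and are found in nuclear speckles, share the lengths of 8 inner exons. CCNL2 was listed with 7 exons in 21 events and CCNL1 with 3 exons in 6. Exons 4 and 5 were listed in both genes, exons 3, 6, 7 and 8 in CCNL2 alone, and exons 2 and 9 in neither. Exon 4 has 121 bases (CCNL1 chr3:156870825-156870945, CCNL2 chr1:1330774-1330894, both minus strand) and was in 2 events for CCNL1 and 6 for CCNL2. Exon 5 has 65 bases (chr3:156869966-156870030 and chr1:1328776-1328840, both minus strand), so its removal shifts the frame and leaves 207 of 526 residues in CCNL1 and 247 of 520 in CCNL2. None of the 4 skipping junctions of CCNL1 or the 13 of CCNL2 was annotated. The exons 5 are printed because their lengths and 48 of 65 bases are the same, while the 3' splice site before them scored 14.88 in CCNL1 and 6.75 in CCNL2.
CCNL1 exon 5: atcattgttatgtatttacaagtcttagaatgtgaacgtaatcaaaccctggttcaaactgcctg
CCNL2 exon 5: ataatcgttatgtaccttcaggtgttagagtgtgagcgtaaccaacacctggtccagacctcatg

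Among the remaining cyclins, CCNY and CCNYL1 stood out by number of events. Cyclin Y is held at the membrane and binds CDK14 and CDK16, and CCNYL1 encodes its close relative. CCNYL1 had 42 events of 8 exons and CCNY 40 events of 7, and CCNY exon 4 (chr10:35805451-35805551, plus strand, 101 bases) was in 11 events, the most for any member exon. Reads of CCNYL1 can be shared with near-identical copies, since the annotation holds further CCNYL genes classed as pseudogenes, and CCNYL2 was listed with 1 exon of 167 bases (chr10:42916211-42916377, minus strand), the length of exon 8 in CCNY and CCNYL1.

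Exon 5 has 36 bases in both genes (CCNY chr10:35814892-35814927, CCNYL1 chr2:208602135-208602170, both plus strand) and is identical at 28 of them (77.8%). Its removal has different results in the reading frame. In CCNY, 12 residues are lost and 329 of 341 remain. In CCNYL1, the codon formed across the new joint is a stop codon at residue 144, and 143 of 359 residues remain. Below each exon stand the joined ends of exons 4 and 6, 12 bases from each, with the codon across the joint in capitals (residue 122 in CCNY).
CCNY exon 5: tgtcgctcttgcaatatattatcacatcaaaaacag
CCNY exons 4 and 6 joined: tacaattaaaTGGgacccagatgg
CCNYL1 exon 5: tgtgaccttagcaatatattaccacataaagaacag
CCNYL1 exons 4 and 6 joined: cacagtaaaaTGAgatgcaaatag

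A stop codon made in this way was rare. CCNYL1 exon 5 was the only case among 121 wholly coding member exons with a length divisible by 3 (0.826%, 0.146 to 4.53), beside 111 of 22752 exons of all genes (0.488%, 0.405 to 0.587). CCNG1, which encodes a cyclin induced by p53, has the only wholly coding listed member exon that holds the start codon, exon 2 (chr5:162866263-162866526, plus strand, 264 bases). Partly coding exons, such as exon 2 of CDK1, CDK4 and CDK6, also hold start codons. In CCNI, 4 of the 5 listed exons keep the frame, and exon 2, the fifth, is partly coding.

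The other CDKs, which act in neurons, in Wnt signalling or at the primary cilium among further roles, had 58 listed exons in 7 genes, and 19 (32.8%) have a length divisible by 3. CDK16 and CDK17 had 11 and 10 listed exons, and CDK14 had 9. The exon with the PSTAIRE variant has 115 bases in CDK16 (exon 6, chrX:47084387-47084501, plus strand) and CDK17 (exon 7, chr12:96692647-96692761, minus strand) and 80 in CDK14 (exon 5, chr7:90419888-90419967, plus strand). The HRD exon has 124 bases in all 3 (chrX:47085678-47085801, chr12:96688777-96688900 and chr7:90546916-90547039), and removal of any of these exons brings an early stop. CDK14 exon 2 (chr7:90233532-90233563, plus strand, 32 bases) is the shortest listed member exon and also the shortest inner exon of the listed member genes.

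CDK5, a kinase of neurons that is activated by proteins other than cyclins, had HRD in exon 6 (chr7:150752840-150752935, minus strand, 96 bases) and DFG in exon 7 (chr7:150752619-150752693, 75 bases). Both keep the frame, and their removal takes 32 and 25 residues. DFG lies in exon 8 of CDK10 (chr16:89759806-89759875, plus strand, 70 bases) and in exon 4 of CDK20 (chr9:90585691-90585812, minus strand, 122 bases), and removal of either brings an early stop. CDK20 nevertheless had 5 of 7 listed exons with a length divisible by 3. For CDK18, 7 exons were listed, none of which holds a motif.

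The CDC25 phosphatases remove the phosphates by which WEE1 and PKMYT1 hold CDKs inactive. They had 27 listed exons, 14 of which have a length divisible by 3. CDC25C was listed with 12 exons in 28 events, CDC25A with 8 in 14 and CDC25B with 7 in 7. In CDC25C, exons 3 to 5 bring an early stop when removed, exons 6 to 11 keep the annotated stop, and exon 13 brings another stop that is not early. CDC25C exon 4 (chr5:137664173-137664218, minus strand, 46 bases) was in 5 events. CDC25A exon 5 (chr3:48224419-48224520, minus strand) and CDC25C exon 9 have the same length of 102 bases, and both were listed. They encode different stretches of their proteins, residues 110 to 143 in CDC25A and 255 to 288 in CDC25C.

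The subunits of the anaphase promoting complex, which marks cyclin B for destruction, and their activator CDC20 had 48 listed exons, and 46 of their 58 inner exons were listed (79.3%). A length divisible by 3 was found for 10 of the 48 (20.8%), the lowest share of the 9 role groups. CDC27 had 18 listed exons in 35 events, of which 3 keep the frame, and CDC23 had 13 in 31, again with 3. CDC16 had 11, CDC20 had 5 and CDC26 had 1. CDC27 exon 7 (chr17:45234279-45234490, minus strand, 212 bases) is followed by a 5' splice site that scored 12.55. CDC27 also has near-identical copies elsewhere in the genome, so its reads can be shared with them.

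CDC6, which loads the replicative helicase at origins, and CDC7, the kinase that fires origins, had 8 listed exons each, together 16 of 20 inner exons (80%). CDC6 exon 4 (chr17:38447721-38447920, plus strand, 200 bases) was in 2 events, and its removal leaves 159 of 560 residues. CDC7 exon 8 (chr1:91979505-91979600, plus strand, 96 bases) was in 3 events, and its removal takes 32 of 574 residues. Of the 16 exons, 5 keep the frame.

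Over all members, 128 of 313 exons (40.9%, 35.6 to 46.4) have a length divisible by 3, near the 38.8% (38.4 to 39.2) of all genes. The role groups spread around this share from 20.8% for the anaphase promoting complex to 58.8% for the cell cycle CDKs. Removal was worked out for the 292 exons that are wholly coding. It keeps the annotated stop for 119 of them (40.8%, 35.3 to 46.5) and brings an early stop, more than 50 bases before the last exon junction, for 154 (52.7%, 47.0 to 58.4). The shares over all genes were 38.9% (38.5 to 39.3) and 52.2% (51.8 to 52.6). In these measures the intervals of the member exons hold the values of all genes. Each exon was removed alone. A listed junction joins the canonical neighbours of 237 of the 313 exons, and for the others no listed junction makes this removal. The others include exon 4 of CDK2, CDK6, CDK8 and CDK20, exon 2 of CCND1, exon 7 of CDK5 and exon 6 of CDK16.

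Splice site strength was described by a score that sums log2 ratios of base frequencies at annotated sites over equal frequencies. The median score of the 5' splice site was 8.17 over the member exons (quartiles 6.44 and 9.55) and 8.07 over those of all genes (6.36 and 9.55). For the 3' splice site the medians were 9.80 (7.64 and 11.83) and 9.21 (6.96 and 11.40). Median exon length was 107 bases for members and 114 for all genes. The 95% intervals of the member medians, from ranked exons taken as independent, were 7.68 to 8.54 and 9.21 to 10.32 for the sites and 100 to 117 bases for length. The median of all genes lay inside the first and the last of them and, at 9.207, just below the lower bound of 9.209 for the 3' splice site.

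Across the role groups, the median of the 5' splice site ranged from 7.07 for CDC6 and CDC7 to 8.97 for the other cyclins. The medians of the 3' splice site were 10.90 for the transcription CDKs and 10.89 for the cell cycle CDKs, beside 8.53 for the other CDKs and 8.22 for the CDC25 phosphatases, the lowest group. Single exons lay far outside these medians. The GC site of CDK1 exon 5 scored -7.47, against a matrix built from GT sites, while the 3' splice site before the same exon scored 13.50. The next lowest 5' splice sites were those of CDK16 exon 9, with 1.12, and CDC7 exon 7, with 1.19, and CDK17 exon 14 had the highest value, 12.65. At the 3' splice site CDC23 exon 6 scored highest, 18.38, followed by CDC27 exon 6 with 17.72 and CCNT1 exon 6 with 17.17.

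**Figure D2:**
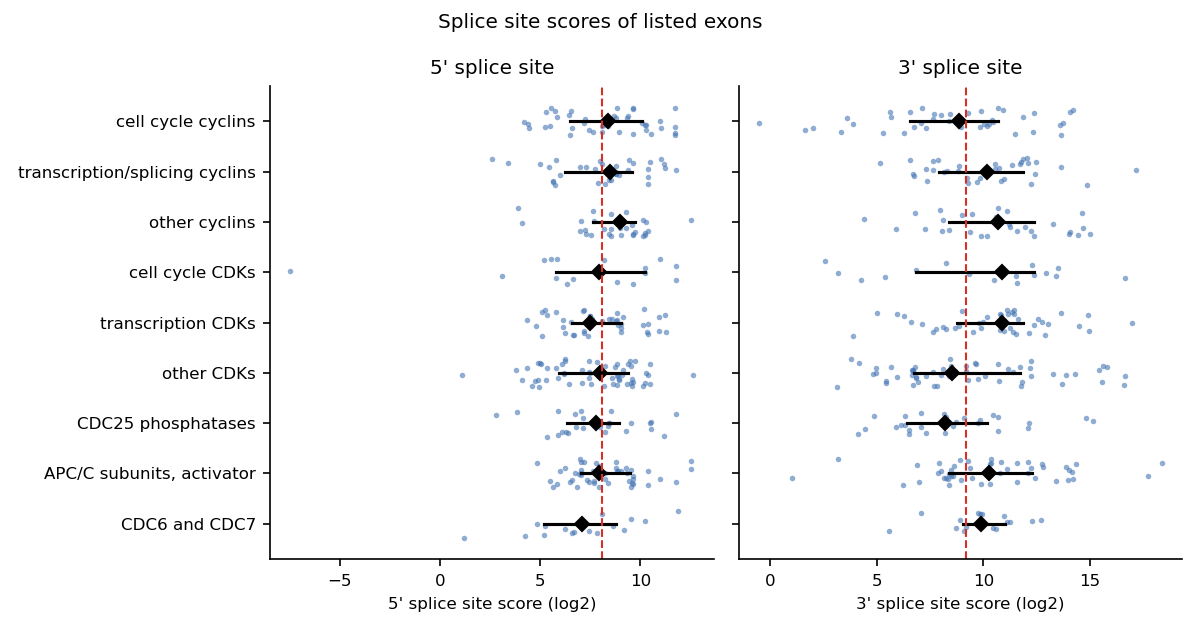
Scores of the 5' (left) and 3' (right) splice sites of the listed member exons by role group, on a log2 scale; points are exons, diamonds medians, bars quartiles and the dashed line the median of the listed exons of all genes. The point at -7.47 is CDK1 exon 5.

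Exons of related genes were matched between members by length and order alone. A matched exon therefore need not encode the same part of both proteins. In 13 pairs of relatives, 90 inner exons have the same length in the same order, with CDK17 compared with both CDK16 and CDK18. Of these, 50 were listed in both genes, 29 in 1 of them and 11 in neither. CDK16 and CDK17, the largest pair with 13 such exons, had 9 listed in both, and CCNY and CCNYL1 had 6 of 7. CDK8 and CDK19 shared 6 of 10, CDK12 and CDK13 5 of 9, and CDK4 and CDK6 4 of 5. Fewer were common to CDK17 and CDK18, with 4 of 12, and to CCNL1 and CCNL2, with 2 of 8. The G1 cyclins CCNE1 and CCNE2 had 2 of 6 in common. Equal length does not mean equal listing, since a difference of this kind occurred in 29 of the 90 exons. CCNI and CCNI2 were not among the 13 pairs and do not enter these counts. Both have inner exons of 129, 75, 141 and 231 bases in the same order, all listed in CCNI and none in CCNI2.

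The junctions that skip an exon were compared with annotated transcripts. Of 477 distinct skipping junctions of members, 65 (13.6%, 10.8 to 17.0) belong to an annotated transcript, beside 19.1% (18.9 to 19.4) of 88907 junctions of all genes. With basic transcripts of the annotation only, the shares were 7.13% (5.15 to 9.80) and 9.71% (9.52 to 9.90). Junctions of any annotated transcript lay in 36 member genes. Of the junctions, 467 join ends of canonical exons. Among these, 236 pass 1 exon, of which 54 were annotated, and 98 pass 2, of which 5 were annotated. None of the 59 that pass 3 exons or the 27 that pass 5 was annotated, while 3 of the 27 that pass 4 and 1 of the 10 that pass 6 were. No junction that passes 7 or more exons was annotated. More than 1 exon was passed by 230 junctions, up to 11 in CDC23 and up to 9 in CCNC, CDC25C and CDK13. Most junctions were found for CDC27, with 24, of which 4 were annotated, and CDC23, with 23, of which 2 were. CCNYL1 had 22, CCNY and CDC25C 20 each and CDK4 18, with 2, 2, 3 and 3 annotated.

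The mutually exclusive table lists pairs of exons of which 1 or the other is joined to the same flanking exons. All 201 member pairs consist of exons that also appear in the skipped-exon table, and 115 (57.2%, 50.3 to 63.9) are neighbours in the canonical transcript. Neither share was worked out for the pairs of all genes. CCNY had 28 events of this kind, CCNYL1 24, CDK4 23 and CDC27 21. The difference in length is divisible by 3 in 63 pairs (31.3%, 25.3 to 38.1), beside 35.8% (35.2 to 36.3) of 30127 pairs of all genes. Exons 11 and 15 of CDC23 form the only pair of equal length (chr5:137527958-137528077 and chr5:137525322-137525441, minus strand, 120 bases each). They are identical at 22 of 120 bases (18.3%).

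For alternative 3' splice sites of members, the distance is divisible by 3 in 13 of 17 choices (76.5%, 52.7 to 90.4). The interval holds the share of all genes, 58.7% (56.7 to 60.6) of 2432 choices. Distances of 3 bases made up 4 of the 17 (23.5%), and 23.6% over all genes. They were found in CCNA1, a cyclin of the germ line, in CCNI2, in CCNJ and in CDC27, where the site starting the longer exon scored higher in CCNA1 and CDC27 and lower in CCNI2 and CCNJ. Of these, the CCNA1 sites (chr13:37007170-37007172, plus strand) lie in the 5' UTR and the other 3 in coding sequence. The coding ones are shown with both AGs in capitals (CCNI2 chr5:132084016-132084041, plus strand; CCNJ chr10:97816858-97816883, plus strand; CDC27 chr17:45219386-45219411, minus strand), with the CDC27 sites 18 bases apart (chr17:45229282-45229322).
CCNI2, 3 bases apart: ccacctgctcttcttcctAGcAGgat
CCNJ, 3 bases apart: aaattatgcaccttctttAGtAGctg
CDC27, 3 bases apart: actatgttgttttctcctAGaAGgtt
CDC27, 18 bases apart: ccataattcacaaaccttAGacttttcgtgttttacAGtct

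In the last of these the first site scored 1.03 and the second, which is the canonical one, 8.93. CCNJ has a further site 33 bases before its tandem pair (chr10:97816845-97816877), which is canonical and scored 10.30. CCNI2 has a second choice 48 bases apart (chr5:132087610-132087657). Among the CDKs, the sites lie 27 bases apart in CDK12 (chr17:37686857-37686883), 180 in CDK13 (chr7:40132384-40132563), 134 in CDK10 (chr16:89762003-89762136), and 28 and 39 in CDK20 (chr9:90582547-90582574 and chr9:90588951-90588989). In CDC25B they lie 42 bases apart (chr20:3778269-3778310). Those of CDC25C, 4 bases apart (chr5:137666904-137666907), and of CDC7, 34 bases apart (chr1:91967211-91967244), lie in the 5' UTR.

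For alternative 5' splice sites, 4 of 10 distances are divisible by 3 (40%, 16.8 to 68.7), and 43.9% (41.7 to 46.0) of 2009 over all genes. This interval overlaps that of the 3' splice sites, and choices that share a site, as in CCNJ and CCNO, are not independent. CCNO, a cyclin of multiciliated cells, had 3 choices among 3 sites (chr5:54528595-54528970, minus strand), 5, 371 and 376 bases apart. CDK18 had 82 bases in the 5' UTR (chr1:205473925-205474006) and 90 in coding sequence (chr1:205492754-205492843), CDK10 had 38 (chr16:89753168-89753205) and 18 (chr16:89761461-89761478), all on the plus strand. The sites lie 852 bases apart in CDC25B (chr20:3776527-3777378, plus strand), 500 in CCND3 (chr6:41908690-41909189, minus strand) and 222 in CCNC (chr6:100016372-100016593, minus strand). The CCNC sites differed most in score, with 5.88 for the canonical site of the longer exon and -3.57 for the other. The site of the longer exon scored higher in 6 of 10 choices of this type and in 12 of 17 choices between 3' splice sites.

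Alternative sites also account for skipped exons outside the canonical transcripts. There were 7 such member exons. In CDC25B, CDC25C, CDK10 and CDK20, and for 2 exons of CDC27, they are the version of a canonical exon that uses the other site of a listed choice. The seventh is an exon of 87 bases in CCNT2 (chr2:135703459-135703545, plus strand), and its skipping junction is annotated.

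The retained introns of members were 82 to 528 bases long, while the median over the 677 of all genes was 283. The longest was in CDK17 (chr12:96674058-96674585, minus strand), where it separates coding exons 16 and 17, and it was the only one of the 5 that is an intron of the canonical transcript. Its 528 bases together with the 78 of exon 16 make up the 606 bases between the alternative 3' splice sites listed for CDK17 (chr12:96674058-96674663), so both tables hold the same stretch. In CCNT2 the intron of 101 bases (chr2:135711950-135712050, plus strand) lies inside coding sequence. In CCNYL1 it has 252 bases (chr2:208576410-208576661, plus strand), is partly coding and consists of G and C at 77.0%. CDC16 had an intron of 82 bases in the 3' UTR (chr13:115037957-115038038, plus strand). That of CCNG1, 100 bases in the 5' UTR (chr5:162864666-162864765, plus strand), begins with CC and ends with GG, unlike the other 4, which begin with GT and end with AG.

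Of 53 other genes of the pathway, 51 had an event (96.2%, 87.2 to 99.0) and 50 a skipped exon, with 322 exons in all. Among protein-coding genes of the annotation, matched by symbol, an event was listed for 53 of the 57 that fit the members' rule (93.0%, 83.3 to 97.2) and for 10970 of all 20149 (54.4%, 53.8 to 55.1). The genes without a skipped exon were CDK inhibitors: CDKN1B and CDKN2D had no event, and CDKN2B only an alternative 5' splice site. The kinases and adaptors of CDKs were all listed, 9 of 9 with 48 exons. Among them WEE1, which phosphorylates CDK1, had 6 and MNAT1, the assembly factor of CDK7 and cyclin H, had 6 in 22 events. All 13 genes of the retinoblastoma and E2F group had a skipped exon, 78 together, with 10 in RB1. The 11 further genes of the anaphase promoting complex and its activator FZR1 had 86, of which 19 were in ANAPC1. The genes of cyclin degradation, 5 of a ubiquitin ligase and FBXO5, which inhibits the anaphase promoting complex, had 34 in 6 genes, 8 of them in SKP2, and the spindle checkpoint had 63 in 6 genes, 18 of them in MAD1L1.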

How the data were processed

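RNA-seq of polyadenylated RNA was available as 5 rMATS tables over 1 control and 1 amiloride library. The submitters' processing notes name STAR 2.5.1 and the build hg19 (GRCh37); the rMATS version is not given in the sources used here. The deposited tables give genome positions of the exons of each event, and these were used. A further 30 columns hold values of single libraries (reads and inclusion levels) and stayed unused, because their names do not tell the condition. The columns of the authors' own comparison, which hold for each event an inclusion level difference, its FDR and its p-value, were not used either. Depth per library is therefore not given, and no test between conditions was made.

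Events were reduced to distinct exons, pairs, sites or introns. Exon numbers, coding regions, proteins and junctions came from GENCODE release 44 on GRCh37, with 1 canonical transcript per gene. Scores cover 9 bases at the 5' splice site (3 exonic) and 23 at the 3' splice site (20 intronic), as sums of log2 ratios to equal base frequencies, from 300873 annotated sites with GT and 300290 with AG and a pseudocount of 0.5. An exon was removed in the canonical transcript and the frame read from the annotated start. PSTAIRE was searched with at most 1 letter changed, HRD and DFG exactly, and each gave at most 1 match per protein. The scores, shares and removals were checked on simulated data.

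Every member was counted. Coordinates are given for the pair of genes with most listed skipped exons per role, for members with a retained intron or alternative site, with a listed exon that holds a motif, or with a mutually exclusive pair of equal length, and for CCNL1 and CCNL2. Other genes and exons singled out, the highest and lowest values among them, were named after their values were seen, and the pairs of relatives were chosen after the exons were seen. Members and lists were chosen with earlier results of these data known. Alternatives counted events in place of distinct exons, left out the CDC genes, and restricted exons and transcripts. The software was Python 3.11.15 with pysam 0.24.0, matplotlib 3.10.9, scipy 1.17.1, pandas 2.3.3 and numpy 2.4.6.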

Additional observations from a re-analysis of the deposited data

How the results depend on the processing

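Of 21 values recomputed under the alternatives, 19 stayed within 1.5 times the first count or within its 95% interval, and 2 did not. Counted as events instead of distinct exons, skipped exons of members numbered 662 in place of 313, which follows from exons that appear in several events. With basic transcripts only, 7.13% of the skipping junctions were annotated in place of 13.6%, since fewer transcripts enter. Without the CDC genes, 222 skipped exons remained, and the share with a length divisible by 3 was 44.6% in place of 40.9%. The medians of the splice site scores stayed between 8.17 and 8.30 for the 5' site and between 9.79 and 9.86 for the 3' site.

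No paired analysis was possible because control and treated cells gave 1 library each. The inclusion levels and reads per library, and with them the alternative of at least 10 junction reads, were not run. The number of reads behind a listed exon is therefore not known here. Exons of 1 gene are not independent, and the intervals do not cover this. Frames and stop codons were read from canonical transcripts, not from proteins or full RNA molecules in these cells.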
